A study of Homo sapiens with 9 samples.

Results

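The 40 genes described here encode the centromere, the kinetochore and the spindle checkpoint, and were listed by symbol for these functions. The rule uses no measured value, but the genes were chosen with earlier results of these data known. Shares of members set beside all tested genes are therefore descriptions of a chosen list. All 40 were found among the 23727 genes of the count table, and all 40 were among the 15273 genes with enough counts to be tested. They divided into 14 genes of CENP-A chromatin and the constitutive centromere network, 10 of the NDC80, MIS12 and KNL1 complexes, 8 of the outer kinetochore, corona and SKA complex, 6 of the spindle checkpoint, and the 2 shugoshins. RNA sequencing was performed on LN229, an established human glioblastoma cell line, spelled LN299 in the source label. Glucose was supplied at 17 mM, glutamine at 2 mM and serum at 10%, and sodium formate, a salt of a simple one-carbon acid, was added at 500 µM. The study compared 3 groups, each with 3 libraries numbered 1 to 3: untreated cells at 0 h, cells after 8 h of formate and cells after 24 h of formate. No untreated cells were sampled at 8 or 24 h, so formate and time in culture cannot be told apart. Nothing in the labels says that replicates came from separate cultures, so the p-values measure the spread between these libraries, which may be technical.

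The kinetochore is the protein assembly that joins a chromosome to spindle microtubules. It is built on nucleosomes holding the histone H3 variant CENP-A, to which the constitutive centromere network binds; the MIS12 complex and KNL1 extend outwards from this base, and the NDC80 complex grips the microtubule. Kinetochores that lack a microtubule recruit the checkpoint proteins, which delay anaphase, and many of these genes are transcribed mainly in G2 and mitosis, so their RNA in a bulk sample reflects how many cells are dividing as well as the level in each cell. RNA of all cells in a dish was measured together, so fewer dividing cells and less RNA per dividing cell cannot be told apart.

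Library totals ran from 22222298 to 25848242 counts, and 3 counts corresponded to between 0.116 and 0.141 CPM, that is, scaled counts. Levels below are in CPM after TMM scaling, a normalisation that balances library composition. Among mesenchymal, neural progenitor and glial markers, VIM lay between 3199 and 6284 CPM, CD44 between 704 and 1124 and NES between 887 and 1011. SOX2 and OLIG2 were lower, with medians of 78.7 and 9.32 CPM over the 9 libraries. SOX9 and GFAP reached at most 1.16 and 0.425 CPM. The leukocyte gene PTPRC was at most 0.133 CPM. The epithelial genes EPCAM and CDH1 had no count in 5 and 7 of the 9 libraries, although KRT18 reached 184 CPM and KRT8 23.0. The neuronal gene SNAP25 lay between 7.40 and 25.9 CPM, while SYP and STMN2 reached at most 1.16 and 0.175.

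Untreated replicate 1 stood apart from the other untreated libraries by transcript length. Its log2 deviation from the mean of replicates 2 and 3 correlated with log2 exon length at r = -0.77 over the 40 genes and at r = -0.27 over 15158 genes (descriptions across genes within this library). All 7 members with under 2500 bases of exon were higher in it, by a median of 0.55 on the log2 scale. Of the 7 members with over 8000 bases, 5 were lower, with a median of -0.46 over the 7. CENPM (0.75), SPC24 (0.71) and CENPW (0.66) deviated most upwards, and MAD1L1 (-0.61, at few counts), KNL1 (-0.58) and KNTC1 (-0.50) most downwards. Fold changes at 24 h against 0 h are therefore given without this library as well for most of the members described. The 24 h libraries were not free of such trends. Over the 40 genes the same correlation was -0.40, 0.56 and -0.0027 for 24 h replicates 1 to 3, each against the other 24 h libraries.

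**Figure D1:**
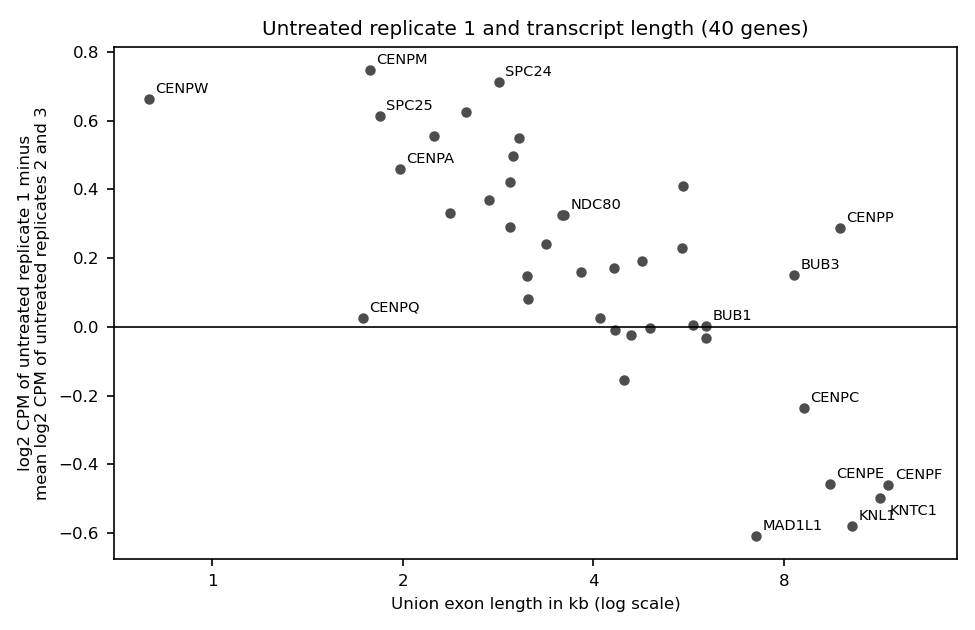
Deviation of untreated replicate 1 from the mean of untreated replicates 2 and 3 (log2 CPM, vertical axis) against union exon length in kb (horizontal axis, log scale), 1 point for each of the 40 genes. Short genes such as CENPM (0.75) lie above 0 and long genes such as KNL1 (-0.58) below it.

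Per kilobase of exon, the untreated levels of the members spanned a wide range. ZWINT, a KNL1 partner that recruits the RZZ complex, was highest with 111 ± 15.2 CPM per kb (SD, n = 3), followed by the corona protein CENPF at 69.3 ± 12.2, the checkpoint kinase BUB1 at 46.5 ± 0.54 and its relative BUB1B at 43.5 ± 2.79. The untreated values of BUB1 lay above those of BUB1B, with no overlap, by about the SD of BUB1B. The lowest were CENPC (3.55 ± 0.36), CENPP (2.69 ± 0.32) and MAD1L1 (0.110 ± 0.031). The order depends on the length used, which is the union of all annotated exons and can exceed the transcript present. By CPM alone CENPF, BUB1 and ZWINT ranked 1, 2 and 3 of the 40, CENPC 34 and CENPP 36. CENPQ and ZW10 then ranked 39 and 38, and MAD1L1 stayed lowest. MAD1L1, which carries MAD2 to kinetochores, had only 12 to 23 counts per library, so its differences were not detectable at this depth.

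After 24 h of formate most of the 40 genes were lower than before it. Members summed to 4620, 4513 and 4565 CPM in the untreated libraries, 4909, 4466 and 4400 at 8 h, and 4161, 3737 and 3169 at 24 h. The 24 h values were all below the others, with replicate 3 lowest. In that library 31 of the 40 genes had their lowest value of the 9 libraries, and in 24 h replicate 1 a single gene did. The same share over all tested genes was not counted.

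In edgeR's quasi-likelihood test (two-sided, Benjamini-Hochberg adjustment over all tested genes, threshold 0.05), 3 members fell at 24 h against 0 h: CENPA, SPDL1 and BUB1. No member rose. Among all tested genes 1.77% fell and 2.47% rose. The fold change was below 0 for 36 of 40 members and for 7492 of 15273 genes, with medians of -0.34 and 0.01 on the log2 scale. The changes were modest: 2 members differed by more than 1.5-fold, and none by more than 2-fold, with a median standard error of 0.14 (log2). An unadjusted p under 0.05 was reached by 24 members, 22 of them lower, and by 26.4% of all tested genes, with 12.6% lower.

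Same-numbered libraries deviated together between 0 h and 24 h (r = 0.367, 0.164 and 0.251). Untreated replicate 3 and 24 h replicate 2 did so as well (0.270), so the numbers are not established as pairs. Between 0 h and 8 h the same-numbered values were 0.476, 0.432 and 0.414, and those of unlike numbers ran from -0.364 to 0.0108. A fit over all 9 libraries with the replicate number as a block called 22 members lower and 1, KNTC1, higher. In that fit 11.6% of all tested genes were called lower and 12.6% higher. All 3 untreated replicates exceeded all 3 replicates of 24 h for 18 members, beside 14.4% of all tested genes. Within the same-numbered pairs, 32, 32 and 36 of the 40 genes were lower at 24 h in replicates 1, 2 and 3, while 52.0%, 47.3% and 49.96% of all tested genes were. Without untreated replicate 1 the test called 4 members lower (CENPA, CENPE, BUB1 and BUB1B; 172 of all genes lower) and the median was -0.28. With the block as well it called 26 (1961 of all genes lower). Leaving out 24 h replicate 2 or 3 left 0 calls, among the members and among all tested genes. Leaving out untreated replicate 3 or 8 h replicate 3 left 1 member (229 and 128 of all genes lower), and leaving out 24 h replicate 1 gave 9 (370 of all genes lower). With the block, 10 were called without 24 h replicate 3 (1220 of all genes). Of the 22 members called lower with the block, 9 kept the call when each of the 9 libraries was left out in turn: CENPA, CENPM, CENPN, NDC80, NUF2, PMF1, SKA3, SPDL1 and BUB1. How many of all tested genes kept a call in this way was not counted.

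**Figure D2:**
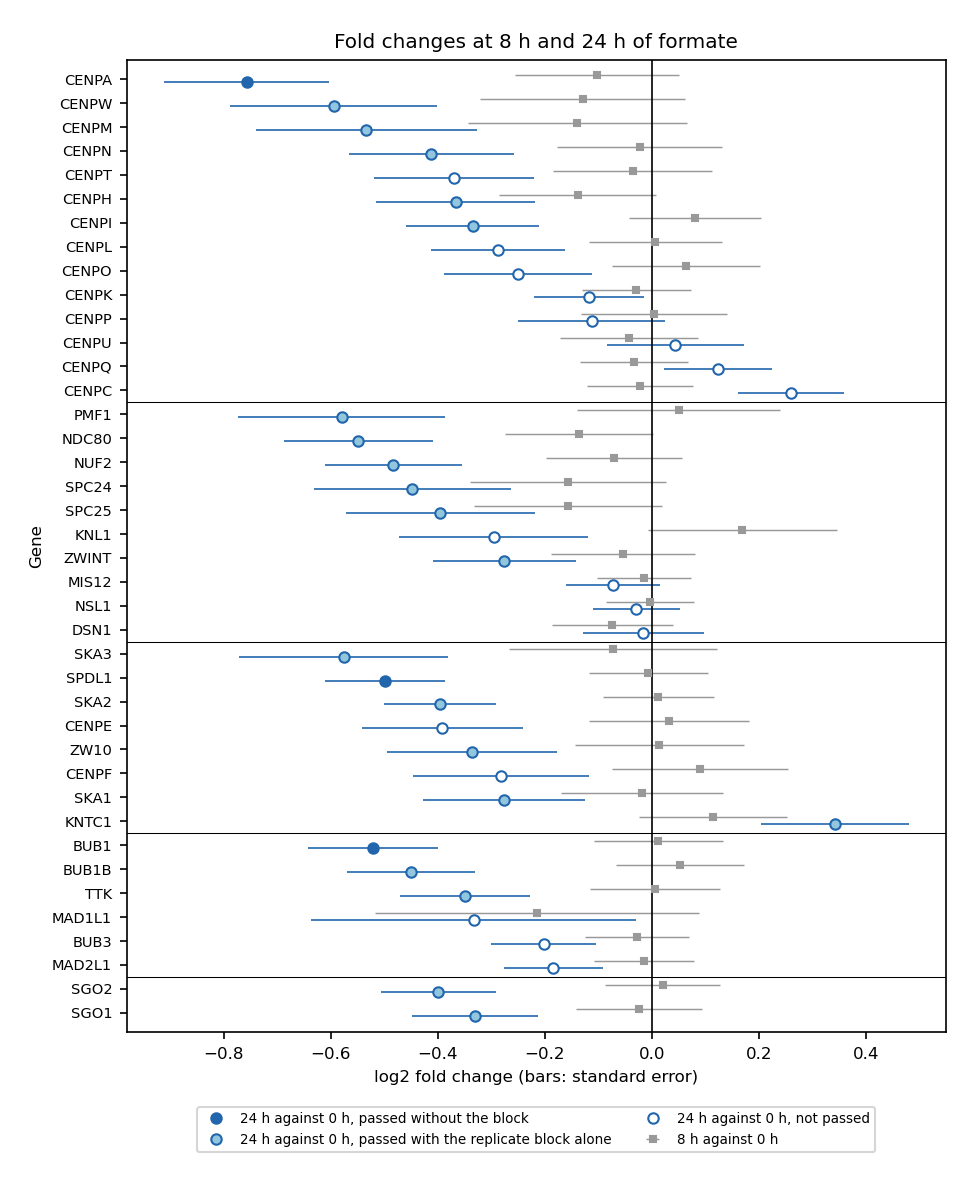
Log2 fold change (horizontal axis) of each of the 40 genes (vertical axis) at 24 h (circles) and 8 h (grey squares) against 0 h, with standard errors as bars, grouped by role. Circles at 24 h lie left of 0 for 36 genes and reach -0.76 (CENPA), dark fill marks the 3 genes called without the block, and the squares at 8 h lie near 0.

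The sequence just upstream of the transcription start is shown for the 4 genes called without the block in at least 1 comparison, and for CENPC, which lies at the base of the same structure and did not fall. Sequences are RefSeq on GRCh38.p14, the 150 bases before the start, 5′ to 3′ on the gene's strand. Capitals mark the cell cycle homology region, searched as TTTGAA, and the CCAAT box, searched as CCAAT, each on both strands (TTCAAA and ATTGG on the other strand; the 2 strings can share at most 1 end letter). Cell cycle homology regions bind the MuvB core complex, and CCAAT boxes bind NF-Y, both known from promoters of G2 and mitosis genes. The windows were chr2:26785906-26786055 on the plus strand for CENPA, chr5:169583623-169583772 on the plus strand for SPDL1, chr15:40160919-40161068 on the plus strand for BUB1B, chr2:110678064-110678213 on the minus strand for BUB1 and chr4:67545504-67545653 on the minus strand for CENPC.
CENPA: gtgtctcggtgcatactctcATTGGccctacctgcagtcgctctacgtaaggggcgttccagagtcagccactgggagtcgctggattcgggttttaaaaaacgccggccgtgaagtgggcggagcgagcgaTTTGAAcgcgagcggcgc
SPDL1: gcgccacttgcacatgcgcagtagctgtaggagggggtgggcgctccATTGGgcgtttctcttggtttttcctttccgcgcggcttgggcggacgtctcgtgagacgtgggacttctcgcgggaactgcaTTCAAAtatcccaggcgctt
BUB1B: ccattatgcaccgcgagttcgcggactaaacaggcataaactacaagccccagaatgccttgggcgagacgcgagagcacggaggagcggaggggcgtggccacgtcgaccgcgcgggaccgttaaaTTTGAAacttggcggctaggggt
BUB1: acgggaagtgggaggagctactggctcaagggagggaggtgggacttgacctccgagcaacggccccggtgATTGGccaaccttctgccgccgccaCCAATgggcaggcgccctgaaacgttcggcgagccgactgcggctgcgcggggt
CENPC: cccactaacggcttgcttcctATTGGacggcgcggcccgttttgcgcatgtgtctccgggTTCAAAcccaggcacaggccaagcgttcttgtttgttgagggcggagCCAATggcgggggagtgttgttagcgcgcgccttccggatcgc
In CENPA, SPDL1 and BUB1B the string TTTGAA or its reverse began at positions -18, -20 and -23 relative to the start, and in CENPC at -90. These letters are not in the BUB1 window, which holds CCAAT on each strand.

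Over the window from 250 bases before to 50 after the start, RefSeq entries were matched for 33 of the 40 members. TTTGAA occurred in 15 of them (45.5%) against 15.4% of 27305 promoters, and CCAAT in 20 (60.6%) against 35.7%. Both strings occurred in 9 members (27.3%) against 6.08% of all promoters. Of the 19 matched members called lower with the replicate block, 11 held TTTGAA (57.9%), and of the other 14 members 4 did (28.6%). The median fold change at 24 h was -0.39 (log2) for the 15 members with the string and -0.33 for the 18 without it. These are matches of letters and were not tested as binding sites.

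In the CENP-A and constitutive centromere network, CENPA fell, and none of the other 13 genes passed without the block; their log2 differences ran from -0.59 (CENPW) to 0.26 (CENPC). CENPA, the histone variant that marks the centromere, had 92.2, 65.6 and 68.5 CPM in untreated replicates 1 to 3, 74.5, 61.9 and 74.2 at 8 h, and 49.9, 47.2 and 36.8 at 24 h. All 24 h libraries were below all others. The level fell by 40.8% (log2 fold change -0.76 ± 0.15 SE, adjusted p = 0.0289), the most of any member, and without untreated replicate 1 the value was -0.61 (adjusted p = 0.0412). It lost the call without 24 h replicate 2 or 3 (adjusted p = 0.121 and 0.139) and kept it without each of the other 7 libraries. By annotation, 6.96% of its exon bases lie in the same-strand gene SLC35F6.

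CENPW and CENPI had the next smallest p-values of this group. CENPW, which with CENPT forms a histone-fold pair on centromeric DNA, had 36.9, 25.4 and 21.3 CPM untreated, 25.1, 25.8 and 25.4 at 8 h, and 22.8, 15.8 and 16.7 at 24 h. Its 24 h and untreated ranges overlapped, with untreated replicate 1 high. The log2 difference was -0.59 ± 0.19 (adjusted p = 0.0945, and 0.0116 with the block), and -0.36 without untreated replicate 1 (adjusted p = 0.220). CENPI, of the CENP-H, CENP-I and CENP-K subcomplex, had 52.1, 54.5 and 50.4 CPM untreated, 59.1, 56.7 and 50.3 at 8 h, and 45.04, 45.8 and 33.7 at 24 h. Its groups did not overlap, with 24 h replicate 3 lowest, and the log2 difference was -0.33 ± 0.12 (adjusted p = 0.128, and 0.0203 with the block), or -0.36 without untreated replicate 1. With the block its call held in 6 of the 9 fits that left out a library.

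CENPC, CENPQ and CENPU of this network were not lower at 24 h. CENPC, the scaffold that links CENP-A nucleosomes to the MIS12 complex, had 27.3, 31.1 and 33.4 CPM untreated, 30.2, 28.8 and 31.5 at 8 h, and 37.0, 37.1 and 35.9 at 24 h. All 24 h values lay above all others, and the log2 difference was 0.26 ± 0.10 (adjusted p = 0.136, and 0.0568 with the block). Without untreated replicate 1, which was low for this gene of 8613 exon bases, the difference was 0.17 (adjusted p = 0.314). CENPQ and CENPU are partners in the CENP-O subcomplex, which helps to bring the kinase PLK1 to kinetochores. CENPQ had 19.1, 19.3 and 18.2 CPM untreated, 18.8, 18.1 and 18.4 at 8 h, and 22.3, 20.1 and 19.2 at 24 h (log2 difference 0.12 ± 0.10, adjusted p = 0.441), and its 24 h and untreated ranges overlapped. CENPU had 126, 107 and 98.5 CPM untreated, 108, 107 and 106 at 8 h, and 135, 107 and 98.3 at 24 h. Its ranges overlapped throughout (log2 difference 0.04 ± 0.13, adjusted p = 0.847), and its difference was -0.10 without 24 h replicate 1 and -0.03 without untreated replicate 3.

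Of the other 8 network genes, CENPM, CENPN and CENPH had log2 differences of -0.53, -0.41 and -0.37 and passed with the block. Leaving out untreated replicate 1 gave -0.26, -0.31 and -0.18 (adjusted p = 0.373, 0.281 and 0.349). The call of CENPH with the block held in 5 of the 9 fits that left out a library. CENPT (-0.37), CENPL (-0.29), CENPO (-0.25), CENPK (-0.12) and CENPP (-0.11) passed neither fit, and were at -0.24, -0.31, -0.19, -0.077 and -0.029 without that library. In all, 1 of 14 network genes fell without the block and 6 with it, beside 1.77% and 11.6% of all tested genes. The median of the 14 was -0.31. Antisense reads are a limit here if strand was not used in counting, which is not given in the sources used here: genes on the opposite strand cover 42.7% of the exon bases of CENPP, 31.4% of CENPO, 22.8% of CENPN, 19.6% of CENPT and 11.7% of CENPU.

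In the microtubule-binding layer, all 4 NDC80 complex subunits fell with the block, whereas 3 of the 4 MIS12 complex subunits had differences smaller than their standard errors. NDC80, whose head domain binds the microtubule, had 120, 98.3 and 93.0 CPM untreated, 102, 89.0 and 92.5 at 8 h, and 81.3, 74.1 and 57.3 at 24 h. All 24 h values were below all others. Its log2 difference of -0.55 ± 0.14 narrowly missed the threshold (adjusted p = 0.05002, and 0.00199 with the block), and was -0.45 without untreated replicate 1 (adjusted p = 0.0871). NUF2, its dimer partner, had 152, 127 and 130 CPM untreated, 131, 124 and 135 at 8 h, and 115, 96.6 and 81.3 at 24 h. Its groups did not overlap either, with a log2 difference of -0.48 ± 0.13 (adjusted p = 0.0552, and 0.00568 with the block), or -0.42 without untreated replicate 1.

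SPC24 and SPC25 form the other end of the complex, which docks on MIS12 and CENP-T. SPC24 had 80.6, 48.6 and 49.6 CPM untreated, 61.6, 48.2 and 50.6 at 8 h, and 47.5, 44.2 and 39.3 at 24 h. SPC25 had 78.2, 53.1 and 49.1 CPM untreated, 59.3, 50.6 and 51.9 at 8 h, and 54.5, 43.6 and 39.0 at 24 h. In both genes untreated replicate 1 was far above the other untreated libraries, and for SPC25 the 24 h and untreated ranges overlapped. Their log2 differences were -0.45 ± 0.18 and -0.39 ± 0.18 (adjusted p = 0.155 and 0.182; with the block 0.0220 and 0.0167). Without untreated replicate 1 these shrank to -0.19 and -0.18, and with the block as well they were -0.28 and -0.29 (adjusted p = 0.0212 and 0.0169). For each gene the call with the block held in 7 of the 9 fits that left out a library (highest adjusted p = 0.121 and 0.0639).

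DSN1, a MIS12 complex subunit through which Aurora B regulates binding to CENP-C, had the largest p of this layer. It had 128, 99.1 and 98.2 CPM untreated, 107, 105 and 97.05 at 8 h, and 110, 110 and 101 at 24 h. The groups overlapped, and apart from untreated replicate 1 the libraries lay within a narrow range (log2 difference -0.02 ± 0.11, adjusted p = 0.939, and 0.10 without untreated replicate 1). NSL1 and MIS12, other subunits of the complex, had log2 differences of -0.03 ± 0.08 and -0.07 ± 0.09. NSL1 moved from 60.9 ± 0.84 CPM to 59.7 ± 0.33 (SD, n = 3), and MIS12 from 51.2 ± 2.85 to 48.7 ± 1.60. Each of the 3 differences was smaller than its standard error, and no direction is given for them.

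PMF1, the remaining MIS12 complex subunit, differed from these. It had 34.3, 23.6 and 20.9 CPM untreated, 31.3, 25.9 and 24.3 at 8 h, and 21.4, 15.7 and 15.6 at 24 h. The 24 h range lay below that of 8 h and overlapped slightly with that of 0 h, with a log2 difference of -0.58 ± 0.19 (adjusted p = 0.0994, and 0.00202 with the block). It was -0.36 without untreated replicate 1 (adjusted p = 0.238, and 0.00155 with the block). A readthrough gene, PMF1-BGLAP, covers 23.3% of its exon bases, which makes its count uncertain. Summed over the 4 subunits of each complex, NDC80 complex RNA went from 360 ± 61.3 CPM untreated to 258 ± 40.6 at 24 h, and MIS12 complex RNA from 247 ± 25.9 to 233 ± 9.45. The mean log2 CPM of the 4 NDC80 complex genes exceeded that of the 4 MIS12 complex genes by 0.75, 0.56 and 0.55 untreated, 0.56, 0.42 and 0.55 at 8 h, and 0.44, 0.36 and 0.18 at 24 h. The 24 h values lay below the untreated ones, and 1 of the 8 h values lay within the 24 h range; the difference between the complexes was not tested.

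**Figure D3:**
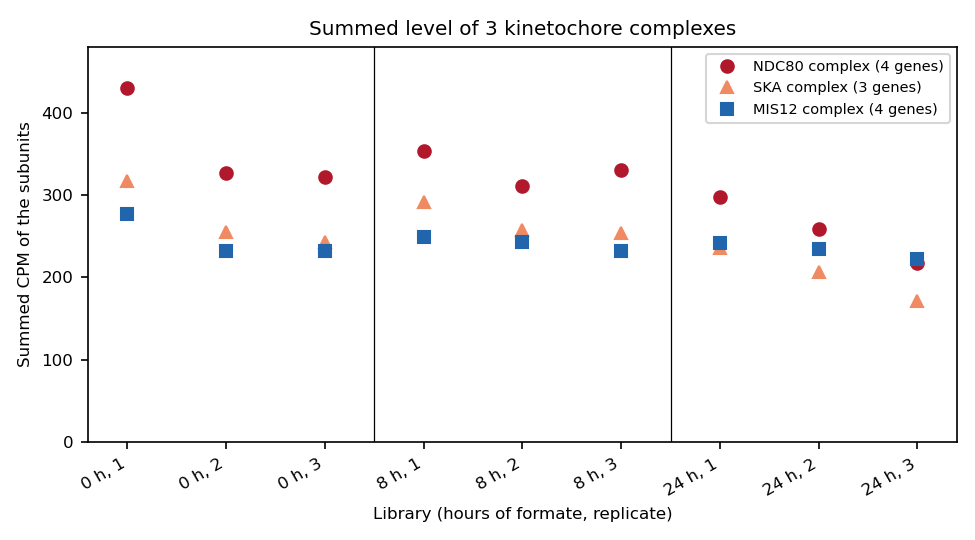
Summed CPM of the subunits (vertical axis) of the NDC80 complex (4 genes, circles), the SKA complex (3 genes, triangles) and the MIS12 complex (4 genes, squares) in each of the 9 libraries (horizontal axis). At 24 h the NDC80 complex lies between 217 and 298 CPM, below all other libraries, while the MIS12 complex lies between 223 and 242.

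KNL1, the scaffold on which BUB proteins assemble, and ZWINT completed this layer. KNL1 ranged from 114 to 178 CPM untreated and from 97.6 to 139 at 24 h, with untreated replicate 1 lowest of its group. Its difference of -0.30 (adjusted p = 0.2998) became -0.48 without that library (adjusted p = 0.101, and 0.000697 with the block as well) and -0.16 without 24 h replicate 3. With the block it was called in 1 of the 9 fits that left out a library, and its difference there ran from -0.59 to -0.064, with a highest adjusted p of 0.782. ZWINT had a difference of -0.28 and passed with the block (adjusted p = 0.0346), a call held in 2 of the 9 fits that left out a library (highest adjusted p = 0.138). Its difference was -0.17 without untreated replicate 1 and -0.18 without 24 h replicate 3. None of the 10 genes of this layer fell without the block and 6 did with it, beside 1.77% and 11.6% of all tested genes. The median of the 10 was -0.35.

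At the outer kinetochore and corona, SPDL1 fell and KNTC1 moved the other way. SPDL1, or Spindly, the adaptor that brings dynein to kinetochores, had 118, 98.3 and 108 CPM untreated, 119, 98.2 and 106 at 8 h, and 82.6, 78.6 and 68.6 at 24 h. All 24 h libraries were below all others. The level fell by 29.2% (log2 fold change -0.50 ± 0.11, adjusted p = 0.0352), and the value was -0.45 without untreated replicate 1 (adjusted p = 0.0522). The call was also lost without untreated replicate 3, 8 h replicate 3, or 24 h replicate 2 or 3, with adjusted p up to 0.159 and the fold change at or below -0.43.

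The SKA complex helps NDC80 to hold on to shortening microtubules. SKA2 had 123, 113 and 109 CPM untreated, 113, 117 and 118 at 8 h, and 98.6, 86.6 and 76.6 at 24 h. SKA3 had 104, 72.6 and 69.2 CPM untreated, 93.1, 71.6 and 68.8 at 8 h, and 65.7, 57.5 and 41.6 at 24 h. For both genes the 24 h values were below all others, with replicate 3 lowest. Their log2 differences were -0.40 ± 0.10 and -0.58 ± 0.20 (adjusted p = 0.0558 and 0.106; with the block 0.00898 and 0.00182), and -0.36 and -0.39 without untreated replicate 1. SKA1 had a difference of -0.28 and passed with the block, a call held in 3 of the 9 fits that left out a library (highest adjusted p = 0.112), and was at -0.14 without untreated replicate 1. The summed SKA RNA went from 272 ± 39.6 CPM untreated to 204 ± 32.5 at 24 h.

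KNTC1, also called ROD, is the large subunit of the RZZ complex that recruits Spindly and MAD1 to unattached kinetochores. It had 60.5, 81.4 and 90.1 CPM untreated, 85.1, 78.4 and 87.7 at 8 h, and 90.2, 109 and 95.3 at 24 h. The 24 h values were above all others, and the lowest of them, 90.2, nearly equalled untreated replicate 3. The log2 difference was 0.34 ± 0.14 (adjusted p = 0.151), and it rose with the block (adjusted p = 0.0463). Without untreated replicate 1, low in this gene of 11325 exon bases, the difference was 0.18 (adjusted p = 0.364, and 0.112 with the block). The call with the block held in 3 of the 9 fits that left out 1 library, those without untreated replicate 3, 8 h replicate 1 or 24 h replicate 3, and the highest adjusted p was 0.231. Its partner ZW10 had a difference of -0.34, lower with the block (adjusted p = 0.0383), but -0.17 without untreated replicate 1, and its call held in 3 of the 9 fits that left out a library.

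CENPF, a large corona protein, had the largest p of its group. It had 648, 868 and 915 CPM untreated, 950, 848 and 790 at 8 h, and 788, 663 and 548 at 24 h. Untreated replicate 1 lay among the 24 h values, so the groups overlapped, and the log2 difference was -0.28 ± 0.16 (adjusted p = 0.289, and 0.180 with the block). Without that library it was -0.44 (adjusted p = 0.132, and 0.000365 with the block as well). With the block this was the only call in the 9 fits that left out a library, where its difference ran from -0.55 to -0.10 and the highest adjusted p was 0.643. CENPE, the kinesin that carries chromosomes along microtubules to the metaphase plate, likewise changed from -0.39 (adjusted p = 0.136) to -0.55 (adjusted p = 0.0465), and with the block was called in 2 of those 9 fits (highest adjusted p = 0.275). Of the 8 genes of this group, 1 fell without the block, and 5 fell and 1 rose with it, with a median of -0.36. Of all tested genes 1.77% fell without the block, and 11.6% fell and 12.6% rose with it.

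Across the 40 genes, fold change at 24 h correlated with log2 exon length at r = 0.36, and at r = -0.05 without untreated replicate 1 (description over genes that share the libraries). The 20 members under 4 kb had a median of -0.40 and the 7 over 8 kb a median of -0.20. Without untreated replicate 1 the medians were -0.22 and -0.17. With a length offset, fitted to remove the length trend of each library and added after the trend was seen, they were -0.32 and -0.30, and 6 members were called lower without the block.

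In the spindle checkpoint, BUB1 fell at 24 h, BUB1B and TTK fell with the block, and BUB3 and MAD2L1 passed neither fit. BUB1, the kinase that marks inner centromeric histone H2A and scaffolds the checkpoint, had 280, 283 and 277 CPM untreated, 292, 286 and 270 at 8 h, and 227, 197 and 162 at 24 h. The 6 libraries of 0 and 8 h lay close together and all 24 h libraries below them, with replicate 3 lowest. The level fell by 30.3% (log2 fold change -0.52 ± 0.12, adjusted p = 0.0378), and the value was -0.54 without untreated replicate 1 (adjusted p = 0.0489). Leaving out untreated replicate 2 or 3, 8 h replicate 2 or 3, or 24 h replicate 2 or 3 ended the call, with adjusted p up to 0.151 and the fold change at or below -0.41.

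BUB1B, which encodes BUBR1, a component of the inhibitor that holds back the anaphase-promoting complex, had 181, 198 and 205 CPM untreated, 212, 203 and 191 at 8 h, and 159, 151 and 118 at 24 h. Its groups did not overlap, and the log2 difference was -0.45 ± 0.12 (adjusted p = 0.0566, and 0.0103 with the block). It was -0.52 without untreated replicate 1 (adjusted p = 0.0477). By annotation, the same-strand readthrough gene BUB1B-PAK6 covers 10.2% of the exon bases of BUB1B. TTK, the MPS1 kinase that starts checkpoint signalling, had 137, 141 and 138 CPM untreated, 145, 140 and 131 at 8 h, and 127, 110 and 88.5 at 24 h. Its 24 h values were below all others, and the log2 difference was -0.35 ± 0.12 (adjusted p = 0.111, and 0.0216 with the block), or -0.38 without untreated replicate 1. Its call with the block held in 5 of the 9 fits that left out a library.

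BUB3, the propeller protein that carries BUB1 and BUBR1 to KNL1, and MAD2L1, which encodes the MAD2 protein that binds CDC20, had log2 differences of -0.20 ± 0.10 and -0.18 ± 0.09, and -0.17 and -0.20 without untreated replicate 1. Both had 24 h values below all untreated values (adjusted p = 0.208 and 0.227; with the block 0.0836 and 0.132). Their difference from BUB1 was not tested. MAD1L1 had the largest p of the group, with 0.566, 0.809 and 1.02 CPM untreated, 0.863, 0.656 and 0.553 at 8 h, and 0.677, 0.604 and 0.622 at 24 h, which overlapped (adjusted p = 0.493). Of the 6 checkpoint genes, 1 fell without the block and 3 with it, beside 1.77% and 11.6% of all tested genes. The median of the 6 was -0.34.

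**Figure D4:**
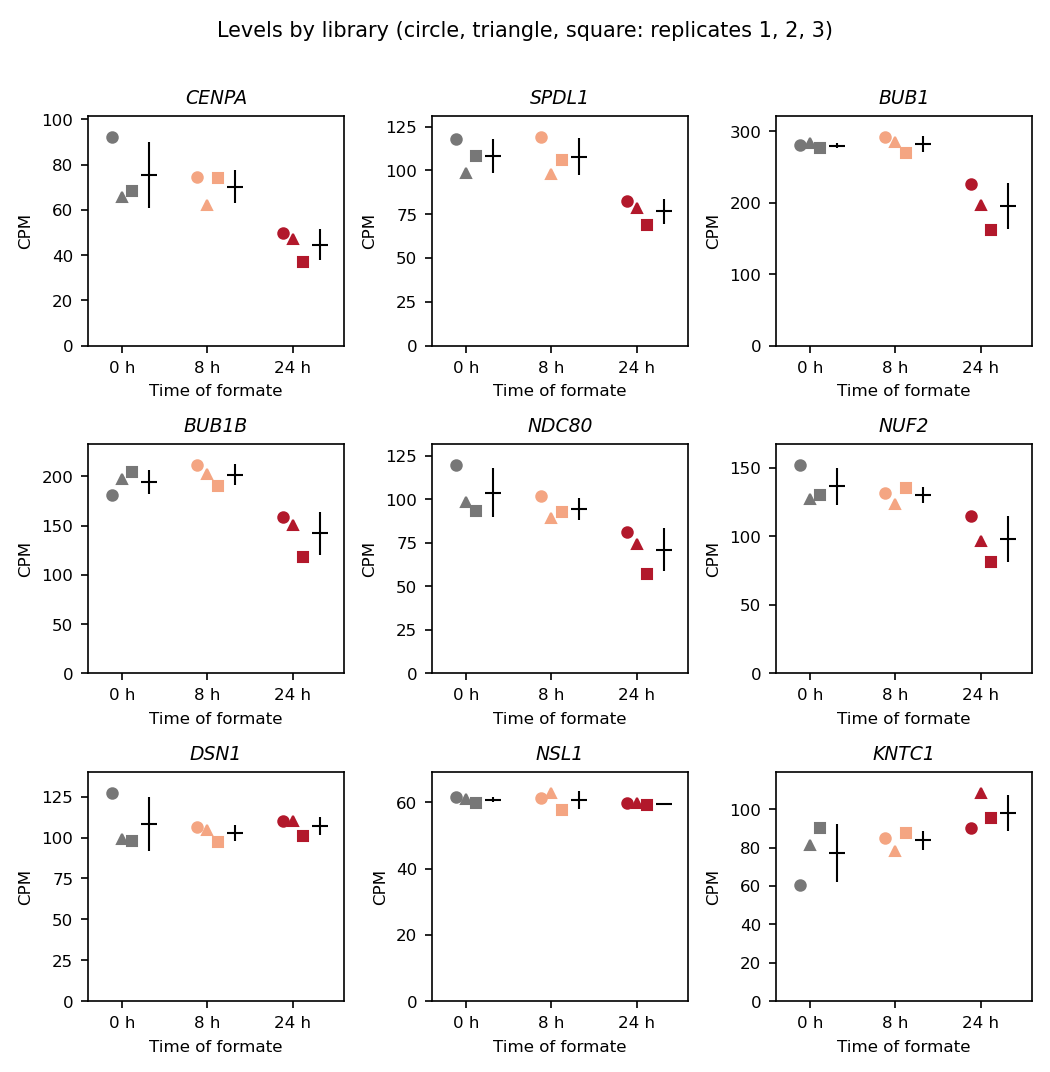
CPM (vertical axes, from 0) of 9 genes in each library by hours of formate (horizontal axes); circles, triangles and squares are replicates 1, 2 and 3, and black marks the mean and SD of 3 libraries. CENPA, SPDL1, BUB1, BUB1B, NDC80 and NUF2 lie lower at 24 h than in all other libraries, DSN1 and NSL1 differ by less than their standard errors, and KNTC1 is higher at 24 h.

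Shugoshins protect the cohesin that holds sister centromeres together until anaphase. SGO2 had 180, 185 and 184 CPM untreated, 205, 174 and 177 at 8 h, and 150, 144 and 122 at 24 h. SGO1 had 53.0, 48.6 and 46.4 CPM untreated, 51.1, 46.6 and 47.8 at 8 h, and 42.6, 42.5 and 32.5 at 24 h. For both, all 24 h libraries were below all others. The log2 differences were -0.40 ± 0.11 and -0.33 ± 0.12 (adjusted p = 0.0585 and 0.117), and both fell with the block (adjusted p = 0.00840 and 0.0254). They were at -0.43 and -0.29 without untreated replicate 1, and the calls with the block held in 8 and 5 of the 9 fits that left out a library. The antisense gene SGO1-AS1 covers 17.7% of the exon bases of SGO1.

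At 8 h no change in the 40 genes was detected. No member passed the test with or without the block, and 0% of all tested genes were called lower in either fit. No member reached an unadjusted p under 0.05, and 79 of the 15273 genes did; DESeq2 and limma-voom called 0 members as well. Fold changes lay between -0.22 (MAD1L1) and 0.17 (KNL1), with a median of -0.02 for the members and -0.02 for all tested genes. For no member did the 8 h and untreated libraries separate, beside 1.89% of all tested genes that were lower without overlap. With a median standard error of 0.14 (log2), smaller differences than those at 24 h could not be resolved.

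The later interval held the difference. At 24 h against 8 h, 4 members fell: BUB1 (log2 fold change -0.53 ± 0.12, adjusted p = 0.0354), SPDL1 (-0.49 ± 0.11, 0.0359), CENPA (-0.65 ± 0.15, 0.0394) and BUB1B (-0.50 ± 0.12, 0.0408). None rose, and 1.72% of all tested genes fell. The 8 h and 24 h libraries separated for 21 members that were lower, beside 16.2% of all tested genes. SKA2 and SGO2 lay just past the threshold, at -0.41 and -0.42 (adjusted p = 0.0501 for each). Both comparisons of 24 h use the same 24 h libraries, so their calls are not independent. The count was 0 without any single replicate of 8 h or without 24 h replicate 2 or 3, 10 without 24 h replicate 1, and 15 without untreated replicate 1, which enters this comparison through the estimate of the spread and the filter and scaling. All tested genes called lower numbered 0, 147 and 36 without replicates 1, 2 and 3 of 8 h, 0 without 24 h replicate 2 or 3, 393 without 24 h replicate 1 and 1227 without untreated replicate 1.

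**Figure D5:**
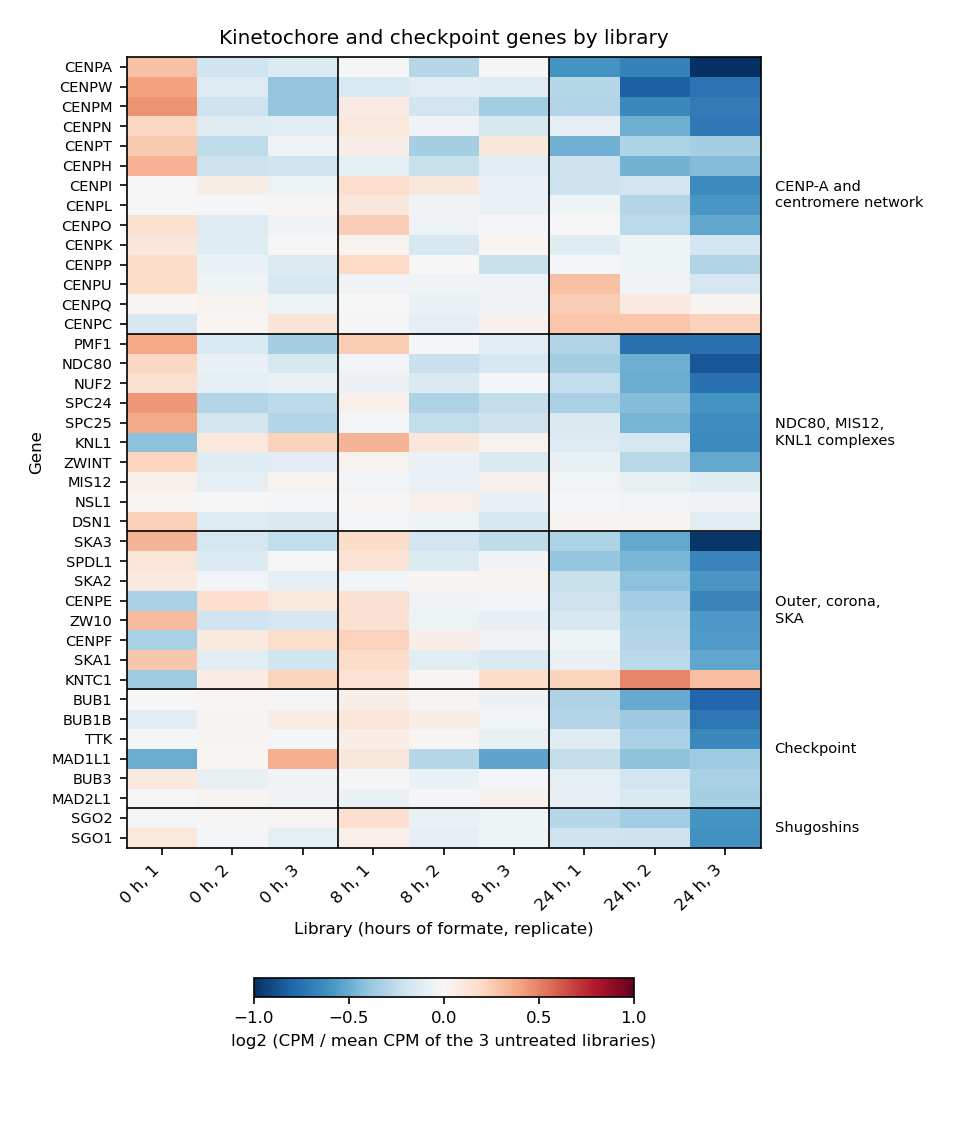
Log2 ratio of the CPM of each gene (vertical axis) to the mean of the 3 untreated libraries, in the 9 libraries (horizontal axis), with genes grouped by role; blue is lower and red higher. The 24 h columns are blue for most genes and darkest in replicate 3, which holds the lowest value of 31 genes, and untreated replicate 1 is red for the 7 genes under 2500 bases, faintly for CENPQ, and blue for 5 of the 7 genes over 8 kb (CENPP and BUB3 are the others).

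Genes outside the 40 that act with kinetochores were read from lists of 50 tested genes. Of these, 4 fell at 24 h against 0 h without the block and 20 with it, beside the 1.77% and 11.6% of all genes. Without untreated replicate 1 the counts were 2 and 23, where 172 and 1961 of all tested genes were called lower. In the chromosomal passenger complex and partners, which correct faulty attachments, BIRC5 (survivin) had 699, 514 and 466 CPM untreated and 413, 320 and 279 at 24 h, and fell (log2 fold change -0.73 ± 0.17, adjusted p = 0.0396). KIF2C, the microtubule depolymerase MCAK, had a difference of -0.56 (adjusted p = 0.0632); 1 of 6 genes of this list fell without the block and 4 with it.

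CDC20, PTTG1 and UBE2C, which act at the exit from the checkpoint, fell. CDC20, the activator of the anaphase-promoting complex that the checkpoint holds back, had 603, 452 and 427 CPM untreated and 325, 251 and 221 at 24 h (log2 fold change -0.90 ± 0.17, adjusted p = 0.0267). PTTG1, or securin, the inhibitor of separase, fell (log2 fold change -0.74 ± 0.15, adjusted p = 0.0269); in the list of checkpoint silencing genes, RZZ partner and securin, 2 of 7 fell without the block and 6 with it. Among 16 genes of the anaphase-promoting complex, UBE2C, its E2 enzyme, fell (-0.92 ± 0.23, adjusted p = 0.0455), UBE2S had -0.76 (adjusted p = 0.0589), and the list's median was -0.18. Of the 16, 4 fell with the block. Of all tested genes 1.77% fell without the block and 11.6% with it. UBE2C had 583, 334 and 340 CPM untreated and 271, 212 and 182 at 24 h. PTTG1 had 284, 213 and 198 CPM untreated and 162, 127 and 126 at 24 h. In BIRC5, CDC20, PTTG1 and UBE2C untreated replicate 1 was the highest untreated library, and all 24 h values lay below all untreated ones. Fold changes without that library are not given for these genes.

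CENP-A loading factors and other centromere genes had a median of -0.34 over 11 tested genes. None fell without the block and 6 did with it, beside 1.77% and 11.6% of all tested genes. OIP5, a MIS18 complex subunit, had -0.58 (adjusted p = 0.0600) and CENPX -0.70 (adjusted p = 0.0955). In both, untreated replicate 1 was high, at 34.3 CPM against 24.1 and 22.2 for OIP5 and 184 against 100 and 97.5 for CENPX. Cohesin had no called gene among 10 in either fit and a median of 0.10, with STAG2 at 0.31 and STAG1 at -0.24. For STAG2 untreated replicate 1 was low, at 114 CPM against 166 and 162. Of 15 MuvB, DREAM and other G2/M regulators, none was called without the block and 3 fell with it; FOXM1, which drives G2/M genes, was at -0.62 (adjusted p = 0.0502) and E2F5 at -0.60 (adjusted p = 0.104). Of 15 MCM and S phase genes, 2 rose without the block, beside the 2.47% of all genes, namely CCNE2, encoding a cyclin of S phase entry (0.82 ± 0.14, adjusted p = 0.0199), and the helicase subunit MCM6 (0.58 ± 0.11, adjusted p = 0.0271). With the block 8 rose and 1 fell (12.6% and 11.6% of all genes), and the list's median was 0.31. The difference between the lists was not tested, and fold changes without untreated replicate 1 are not given for these genes.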

How the data were processed

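RNA sequencing libraries of LN229 cells were made with a stranded mRNA kit from RNA with an integrity number above 9, per the labels' protocols. The authors deposited 1 table of raw counts per gene. The submitters' processing notes name bcl2fastq 2.20.0.422, STAR 2.7.4a and GRCh38; the counting program, annotation release and strand setting are not given in the sources used here. Symbols were matched by Ensembl identifier, and coordinates, exon lengths and overlaps came from GENCODE on GRCh38. Genes were filtered with filterByExpr, scaled by TMM and fitted with edgeR 4.0.16 (R 4.3.3) as 1 mean per group over 9 libraries, with quasi-likelihood F tests, Benjamini-Hochberg adjustment over 15273 genes and a threshold of 0.05. The script was tested on simulated data.

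Replicate numbers come from the titles. Deviations from group means of same-numbered libraries correlated at 0.367, 0.164 and 0.251 between 0 h and 24 h, so a fit blocked on these numbers is given there. Of the unlike numbers, untreated replicate 3 with 24 h replicate 2 was at 0.270, and the others ran from -0.400 to 0.0115. Between 0 h and 8 h the same-numbered values were 0.476, 0.432 and 0.414, and unlike numbers ran from -0.364 to 0.0108. Between 8 h and 24 h the same-numbered values were 0.423, 0.0367 and 0.404 and the numbers were not taken as pairs. The block nevertheless covers the 8 h libraries, which enter the same fit. Alternatives were other scalings and filters, DESeq2 1.42.0, limma-voom (limma 3.58.1), the block, leaving out each library and a length offset (lowess span 0.3), which was added after the data were seen.

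Members and lists were chosen with earlier results of these data known. Values per library are given, in each role group, for the 3 members of lowest p in the 24 h against 0 h test, for the member with the largest p in groups of 5 or more, for members with a fold change above 0, and for all NDC80 complex subunits; in other lists up to 2 genes with the smallest p are named. KNL1, CENPE, NSL1, MIS12 and BUB3 were described further after their values were seen. The members CENPC, CENPI, CENPU, SKA2, BUB1, BUB3 and SGO1 have annotated pseudogene copies that could share reads.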

Additional observations from a re-analysis of the deposited data

Results flagged for a closer look

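For 4 genes the change from the untreated libraries differed between 8 h and 24 h in edgeR's quasi-likelihood test of 24 h against 8 h, which is the test of that difference. The 24 h effect minus the 8 h effect was -0.53 (log2) for BUB1 (adjusted p = 0.0354), -0.49 for SPDL1 (adjusted p = 0.0359), -0.65 for CENPA (adjusted p = 0.0394) and -0.50 for BUB1B (adjusted p = 0.0408). The 24 h libraries of these genes lay below all 8 h libraries. Both effects use the same untreated libraries, and no explanation was tested.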

How the results depend on the processing

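Counts below are of members called lower, 3 at 24 h against 0 h, 0 at 8 h against 0 h and 4 at 24 h against 8 h, and of the 4 other kinetochore and mitotic exit genes. At 8 h the count was 0 under every alternative run. At 24 h against 0 h 271 of all tested genes were called lower. The count of members was 5 without a filter (381 of all), 10 with DESeq2 (783) and 0 with only the groups compared (54). It was 6 with the length offset (427) and 0 to 9 leaving out each library. With the replicate block it was 22 (1766 of all), or 29 with the length offset as well (2411), and leaving out each library too it ran from 10 to 26 (26, 16 and 17 without untreated replicates 1, 2 and 3; 22, 19 and 19 without those of 8 h; 17, 19 and 10 without those of 24 h). At 24 h against 8 h 262 of all tested genes were called lower. The count of members was 9 with DESeq2 (651) and 13 with only the groups compared (769). It was 8 with the length offset (431) and 0 to 15 leaving out each library. With the replicate block, on numbers not established as pairs, it was 19 (1331), or 26 with the length offset (1996). It ran from 5 to 30 leaving out each library, with 30, 17 and 23 without untreated replicates 1, 2 and 3. Without those of 8 h it was 16, 9 and 5, and without those of 24 h 17, 17 and 7. For the other genes it was 7 without a filter, 12 with DESeq2, 0 with only the groups compared and 7 with the length offset. It ran from 0 to 7 leaving out each library, and was 2 without untreated replicate 1. With the replicate block it was 20, or 24 with the length offset, and 13 to 23 leaving out each library (23, 16 and 20; 21, 18 and 17; 13, 16 and 15). The causes were not tested.

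CENPU, DSN1, MIS12 and NSL1, all near 0, changed sign at 24 h against 0 h. Leaving out each library, CENPU ran from -0.10 (24 h replicate 1) to 0.13 and was -0.03 without untreated replicate 3; with the replicate block and without 24 h replicate 1 it was -0.0445. DSN1 ran from -0.081 to 0.10 (without untreated replicate 1) and was 0.02 without 24 h replicate 3. It was 0.0032 with upper-quartile scaling, 0.064 with library totals alone, 0.062 with the length offset and 0.061 with the replicate block as well. With the replicate block DSN1 was 0.076 without untreated replicate 1 and 0.046 without 24 h replicate 1. With library totals alone, which moved the median of all genes to 0.08, MIS12 was at 0.00073 and NSL1 at 0.045, below that median. The other 36 members kept their sign under every alternative run. Depth limits MAD1L1, with 12 to 23 counts per library.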
